A study of Mus musculus with 4 samples.

Results

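The genes described here are 27 genes of cholesterol synthesis and its control, of 49315 gene IDs in the count table. They were chosen by name from the pathway, not by a rule on their values, and found through their Ensembl gene IDs. Earlier results of these data were known when they were chosen. They comprise 20 enzymes, the sterol sensors and transcription factors Insig1, Insig2, Scap, Srebf1 and Srebf2, and the sterol carriers Stard4 and Npc1l1. Of these, 26 passed the filter on low counts. Npc1l1, a cholesterol uptake protein of the gut, did not, with 4 and 3 counts in the M1 libraries and 2 and 5 in the M2 libraries.

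Poly(A) RNA was sequenced from mouse bone marrow-derived macrophages, which are grown from marrow progenitors, here in L-cell supernatant. All libraries come from Lyz2Cre+ mice, which carry Cre recombinase under control of the myeloid gene Lyz2. The labels name no floxed gene. After 7 days of culture the cells were kept for 24 hours in serum-free medium with 100 ng/ml of LPS, a bacterial product, plus 50 ng/ml of interferon gamma, giving 2 M1 libraries, or with the type 2 cytokines IL-4 and IL-13 at 10 ng/ml each, giving 2 M2 libraries. The series also concerns the EGF receptor inhibitor erlotinib, and whether any of the 4 libraries had it is not stated in their labels. "Higher" and "lower" compare M2 with M1 only, as unpolarized cells were not analysed here. Separate animals or cultures are not stated for the replicates. The p-values therefore rest on how far these libraries differed, which may be technical.

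Cells make cholesterol from acetyl-CoA through mevalonate, isoprenoids, squalene and lanosterol. The pathway is controlled by sterol regulatory element-binding proteins (SREBPs), membrane-bound transcription factors that Scap escorts to the Golgi for cleavage when sterols are scarce, while Insig proteins hold them back when sterols are plentiful. In macrophages, interferon and Toll-like receptor signalling and the oxysterols made by Ch25h are known to act on this control, and liver X receptors oppose it by driving cholesterol export.

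Library totals ran from 26806370 to 39506242 gene counts. Levels are CPM, counts scaled to library size with edgeR's TMM factors, and fold changes are on the log2 scale as M2 minus M1. Macrophage markers were present in every library, with a summed level of 4334 to 5173 CPM for 7 genes, of which 2 were higher and 5 lower in M2. Lyz2 itself, the locus that drives the Cre, had 25.3 and 27.3 CPM in M1 and 6.51 and 6.88 CPM in M2. Markers of other cell types moved with the groups too. All 3 stromal markers (Col1a1, Col1a2 and Pdgfrb) were higher in M2, with a sum of 98.4 and 96.2 CPM in M1 and 1030 and 1053 CPM in M2. The 3 dendritic cell markers summed to 32.6 and 33.3 CPM in M1 and 2.36 and 1.61 CPM in M2, with Xcr1 and Flt3 lower and Zbtb46 higher in M2. From few counts, 3 further markers were called higher in M2: Mpo of neutrophil precursors (4 and 1 counts in M1, 29 and 41 in M2), Mcpt8 of basophils (2 and 3, then 10 and 27) and Adipoq of adipocytes (0 and 0, then 17 and 22). The other markers of these cell types, Ly6g, Elane, Cpa3, Ms4a2, Plin1 and Cfd, were too thinly counted to test. The adipocyte markers Plin1 and Cfd had at most 1 count in any library. The mast cell and basophil sum was at most 0.651 CPM, with Ms4a2 at 0 in every library. The T cell sum was at most 0.434 CPM. The part of these cells in the results below was not tested. In bulk RNA, fewer cells of a type and less RNA per cell cannot be told apart.

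Of 23 members with a promoter window in RefSeq (GRCm38.p6, 250 bases before to 50 after the gene start), 21 held a CCAAT box, CCAAT or its reverse ATTGG, against 41.1% of 27025 genes. The sterol regulatory element, searched as TCACNCCAC on both strands, was found in 1 of them, Hmgcs1, against 1.44% of genes. With up to 1 mismatch it was found in 10 of 23, against 26.7% of genes. Neither motif overlapped the other in Hmgcs1. The 250 bases before the start are shown for 4 members on GRCm38.p6, with both motifs in capitals. Hmgcs1 (chr13:119690101-119690350, plus strand) holds the exact element, Cyp51 (chr5:4104698-4104947, minus strand) differed most between the M1 libraries among members with a window, Srebf2 (chr15:82147019-82147268, plus strand) encodes the transcription factor, and Ebp (chrX:8193513-8193762, minus strand) hardly differed between the M1 libraries. A match is a description of letters, and a missing match says nothing about binding.
Hmgcs1: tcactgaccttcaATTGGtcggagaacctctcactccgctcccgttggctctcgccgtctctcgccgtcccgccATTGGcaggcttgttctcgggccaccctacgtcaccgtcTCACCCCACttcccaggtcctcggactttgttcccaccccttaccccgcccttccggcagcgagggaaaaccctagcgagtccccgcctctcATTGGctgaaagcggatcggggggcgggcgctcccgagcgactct
Cyp51: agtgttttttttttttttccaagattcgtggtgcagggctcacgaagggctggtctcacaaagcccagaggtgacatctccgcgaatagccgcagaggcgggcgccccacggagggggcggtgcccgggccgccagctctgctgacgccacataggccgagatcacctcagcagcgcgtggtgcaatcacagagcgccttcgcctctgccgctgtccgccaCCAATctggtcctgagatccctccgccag
Srebf2: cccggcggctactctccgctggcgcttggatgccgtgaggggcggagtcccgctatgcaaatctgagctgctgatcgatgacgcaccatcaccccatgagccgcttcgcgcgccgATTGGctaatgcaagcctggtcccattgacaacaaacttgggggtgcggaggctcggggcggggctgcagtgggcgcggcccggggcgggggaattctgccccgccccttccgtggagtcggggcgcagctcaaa
Ebp: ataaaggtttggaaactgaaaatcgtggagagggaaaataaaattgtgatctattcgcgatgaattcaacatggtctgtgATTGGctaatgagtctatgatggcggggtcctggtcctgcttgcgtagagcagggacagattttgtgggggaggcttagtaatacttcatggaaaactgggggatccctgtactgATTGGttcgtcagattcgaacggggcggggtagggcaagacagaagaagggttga

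M2 against M1 asked which steps of the pathway differ between the alternative and the inflammatory state. The pathway did not move one way. Of the 26 members tested, 7 were higher and 6 lower in M2 at an adjusted p under 0.05 and 13 were not called, with a median of 0.05 log2 units against 0.04 over all genes tested. Among all 14656 genes 39.7% were called higher and 37.5% lower, together 77.2%, against 50.0% of the members. The libraries of the groups did not overlap for 17 of 26 members and for 88.5% of all genes. All adjusted p-values are from edgeR's quasi-likelihood test with Benjamini-Hochberg adjustment over all 14656 genes.

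**Figure D1:**
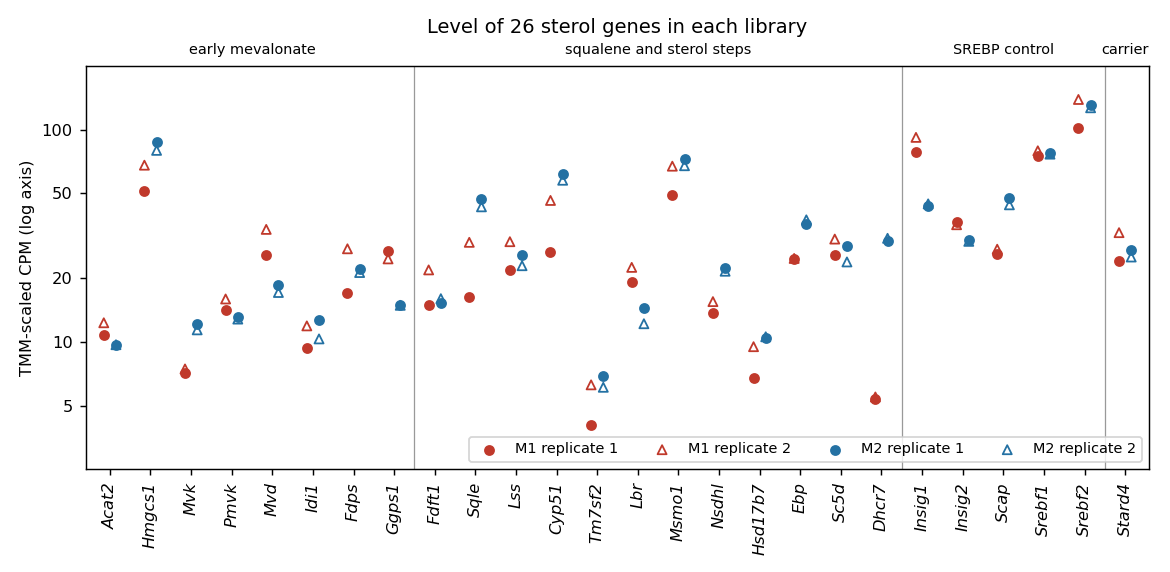
TMM-scaled CPM of the 26 tested members (log axis) in each of the 4 libraries, M1 in red and M2 in blue, circles for replicate 1 and open triangles for replicate 2, grouped by role. The M2 symbols lie close together for most genes, whereas the M1 triangle stands above the M1 circle for 24 of 26; Dhcr7 shows the widest gap between the groups.

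The first steps split. Acat2, the cytosolic thiolase that joins acetyl-CoA units, had 10.8 and 12.3 CPM in M1 and 9.64 and 9.68 CPM in M2, and fell by 0.25 on the log2 scale (SE 0.10, edgeR adjusted p = 0.0403). Its M1 libraries both lie above M2, but a near-identical gene, Acat3, shares 1477 bases at 97.7% identity, so its value is uncertain. Its call did not hold without M1 replicate 2 (log2 -0.16) or without M2 replicate 1 (-0.23) or 2 (-0.24), nor with DESeq2 (-0.28), and under total-count scaling it stood at 0.20. Hmgcs1, the HMG-CoA synthase that opens the mevalonate route, had 51.1 and 67.9 CPM in M1 and 87.4 and 79.8 CPM in M2. It rose 1.41-fold (0.49, SE 0.13, edgeR adjusted p = 0.0143), with M1 replicate 2 lying nearer to M2 than to M1 replicate 1 does. Mvk, mevalonate kinase, rose 1.62-fold from 7.10 and 7.44 CPM to 12.2 and 11.4 CPM (edgeR adjusted p = 2.76e-05), and its M1 libraries were close.

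Pmvk, the next kinase, had 14.0 and 15.9 CPM in M1 and 13.1 and 12.8 CPM in M2 and was not called (log2 -0.21, edgeR adjusted p = 0.0614). It was called lower under RLE scaling (log2 -0.23) and without M1 replicate 1 (-0.30), but higher under total-count scaling (0.24). Mvd, the decarboxylase that makes isopentenyl diphosphate, fell: M1 libraries had 25.5 and 33.8 CPM and M2 libraries 18.5 and 17.1 CPM, 1.66-fold higher in M1 (edgeR adjusted p = 2.82e-04). Mvk and Mvd, enzymes of the same short stretch of the pathway, moved in opposite directions, although Mvd lost its call under total-count scaling (log2 -0.29).

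Of the isoprenoid enzymes Idi1, Fdps and Ggps1, Ggps1 fell in M2 and the others were not called. Idi1, the isomerase, had 9.37 and 11.9 CPM in M1 and 12.7 and 10.3 CPM in M2, and the groups overlapped. Fdps, which makes farnesyl diphosphate, had 17.1 and 27.4 CPM in M1 and 22.0 and 21.2 CPM in M2, so both M2 libraries lay between the M1 libraries (log2 -0.03, SE 0.25, edgeR adjusted p = 0.915). Both genes have near-identical pseudogenes, Gm13502 for Idi1 and Gm3571 for Fdps. Those hold at most 7 counts in any library, but the authors' handling of shared reads is not given in the sources used here. Ggps1, which makes the geranylgeranyl diphosphate used to anchor small GTPases, fell. It had 26.9 and 24.6 CPM in M1 and 14.9 and 14.8 CPM in M2, 1.73-fold higher in M1 (log2 -0.79, SE 0.08, edgeR adjusted p = 4.60e-07). In libraries that do not mark strand, its value is uncertain, as it shares 257 exon bases with Arid4b on the opposite strand. Arid4b held 2119 and 1767 counts in M1 and 1163 and 1644 in M2. A near-identical gene, Gm5630, also shares 903 bases with Ggps1 at 97.2% identity.

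From squalene to the end of the pathway, 4 of 12 enzymes rose, 1 fell and 7 were not called, against 39.7% higher and 37.5% lower over all genes. Dhcr7, which makes cholesterol from its immediate precursor (GRCm38, chr7:143823145-143848410), had 5.35 and 5.49 CPM in M1 and 29.7 and 30.7 CPM in M2 (log2 2.48, SE 0.10, edgeR adjusted p = 2.15e-12). No other member changed by more than 1 log2 unit. Ebp, the sterol isomerase, rose 1.49-fold from 24.5 and 24.7 CPM to 35.9 and 37.5 CPM (edgeR adjusted p = 2.52e-06). Nsdhl, a dehydrogenase of sterol demethylation, rose 1.51-fold from 13.6 and 15.5 CPM to 22.3 and 21.5 CPM (edgeR adjusted p = 2.30e-05). Ebp and Nsdhl both lie on chromosome X, and for each the M2 libraries stood clear of M1. Hsd17b7, the keto-reductase of the same demethylation steps, rose 1.30-fold from 6.76 and 9.48 CPM to 10.4 and 10.6 CPM (edgeR adjusted p = 0.0216). Its M1 replicate 2 almost reached M2, and without M1 replicate 1 the call was lost (log2 0.14, edgeR adjusted p = 0.291), as it was with DESeq2 (log2 0.35, adjusted p = 0.0983).

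Lbr and Tm7sf2 are sterol reductases that can remove the same double bond. Lbr, which is also a protein of the inner nuclear membrane, fell from 19.0 and 22.4 CPM to 14.5 and 12.2 CPM, 1.56-fold higher in M1 (edgeR adjusted p = 7.84e-05), and lost its call under total-count scaling (log2 -0.20). Tm7sf2 had 4.05 and 6.26 CPM in M1 and 6.90 and 6.10 CPM in M2, and the groups overlapped (log2 0.34, edgeR adjusted p = 0.0939). It was called higher under upper-quartile (0.53) and total-count scaling (0.79), without a filter (0.40) and without M1 replicate 2 (0.67) or M2 replicate 2 (0.45). The other alternatives did not call it, and without M1 replicate 1 it stood at 0.04. Per kilobase of exon, mean Lbr was at 4.35 RPKM in M1 and 2.80 RPKM in M2, and mean Tm7sf2 at 1.17 and 1.48 RPKM. Tm7sf2 shares 532 exon bases with Vps51 on the same strand, so its counts are uncertain.

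The largest differences not called in the main fit were those of Sqle and Cyp51. Sqle, squalene epoxidase and a rate-limiting step, had 16.3 and 29.4 CPM in M1 and 47.0 and 43.2 CPM in M2 (log2 0.99, SE 0.33, edgeR adjusted p = 0.0744). Cyp51, the lanosterol demethylase, had 26.6 and 46.3 CPM in M1 and 61.6 and 57.7 CPM in M2 (log2 0.72, SE 0.32, edgeR adjusted p = 0.135). In both genes all M2 values lie above all M1 values, and the SD was larger in M1 (9.24 CPM for Sqle and 13.9 CPM for Cyp51) than in M2 (2.64 and 2.74 CPM). Sqle was called higher in M2 with DESeq2 (log2 0.95), limma-voom (1.06), a filter of 5 CPM (1.01) and total-count scaling (1.44). It was not called under RLE or upper-quartile scaling, without a filter, or without M2 replicate 1 (0.94) or 2 (1.06). Cyp51 was called higher with limma-voom (0.78) and total-count scaling (1.16). It was not called with DESeq2 (0.68), nor without M2 replicate 1 (0.68) or 2 (0.78). Msmo1, a sterol oxidase, had 49.3 and 67.2 CPM in M1 and 72.9 and 67.5 CPM in M2 (edgeR adjusted p = 0.149), with M1 replicate 2 just under M2. Msmo1 was called higher with limma-voom (0.29), without a filter (0.33) and under total-count scaling (0.72). The same held without M2 replicate 1 (0.23), M2 replicate 2 (0.34) or M1 replicate 2 (0.50). It was not called under RLE or upper-quartile scaling, with DESeq2, with the filter of 5 CPM or without M1 replicate 1 (0.06).

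Fdft1, Lss and Sc5d, respectively squalene synthase, lanosterol synthase and a late desaturase, overlapped between groups. Fdft1 had 14.9 and 21.8 CPM in M1 and 15.2 and 16.0 CPM in M2. Lss had 21.9 and 29.6 CPM in M1 and 25.8 and 22.8 CPM in M2. Sc5d had 25.5 and 30.5 CPM in M1 and 28.2 and 23.8 CPM in M2. For Fdft1 and Lss both M2 libraries lay within the M1 span. Fdft1 shares 774 exon bases with Ctsb on the opposite strand, which held 76646 to 519499 counts a library, so its value is uncertain in libraries that do not mark strand. In all, 9 members share exon bases with another gene.

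**Figure D2:**
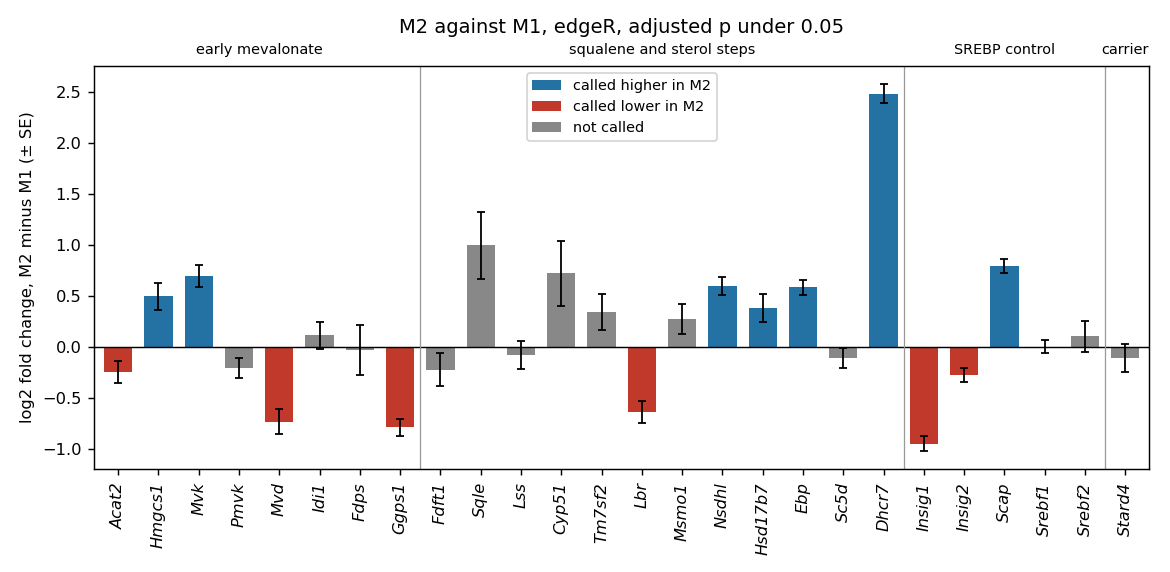
Log2 fold change of M2 minus M1 for the 26 tested members, with SE bars, in blue where called higher in M2, in red where called lower and in grey where not called. Dhcr7 stands at 2.48; the widest error bars, on Sqle, Cyp51 and Fdps, belong to uncalled genes.

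Among the controllers, Scap rose and Insig1 and Insig2 fell in M2, though Insig2 was higher under total-count scaling (log2 0.17). Neither transcription factor was called in the main fit. Insig1, an SREBP target that retains the Scap complex in the endoplasmic reticulum (GRCm38, chr5:28071363-28078662), had 78.7 and 91.8 CPM in M1 and 43.4 and 44.6 CPM in M2. It was 1.93-fold higher in M1 (log2 -0.95, SE 0.07, edgeR adjusted p = 2.65e-08). Insig2, its relative, fell by 0.28 on the log2 scale, from 36.8 and 35.6 CPM to 30.2 and 29.7 CPM (edgeR adjusted p = 0.00198), and was not called without M2 replicate 2 (log2 -0.25, edgeR adjusted p = 0.0560) or under upper-quartile scaling (-0.09, edgeR adjusted p = 0.248). Scap, the escort and sterol sensor, rose 1.73-fold from 25.8 and 27.3 CPM to 47.6 and 44.2 CPM (edgeR adjusted p = 8.93e-08). The groups did not overlap for any of the 3 genes, nor for 88.5% of all genes. These are transcript levels, and SREBP cleavage was not measured.

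Srebf2, which drives the sterol genes, had 101 and 139 CPM in M1 and 130.1 and 127 CPM in M2 (log2 0.10, SE 0.15, edgeR adjusted p = 0.568). Srebf1, which also drives fatty acid synthesis, had 74.6 and 79.4 CPM in M1 and 77.5 and 76.6 CPM in M2 (log2 0.00, SE 0.06, edgeR adjusted p = 0.995). For both, the M2 libraries fell within the M1 span. Srebf1 was called higher in M2 under upper-quartile (log2 0.18) and total-count scaling (0.45), and Srebf2 under total-count scaling (0.55). Those scalings moved the median of all genes by 0.18 and 0.45. Stard4, a cytosolic sterol carrier, had 23.9 and 32.7 CPM in M1 and 27.1 and 25.1 CPM in M2 and also overlapped. Per kilobase of exon, Insig1 had the highest mean level of the members in M1 (27.6 RPKM), ahead of Srebf2 (16.7) and Mvd (16.0). In M2 the order was Hmgcs1 (18.2 RPKM), Srebf2 (17.9), Ebp (15.9) and Insig1 (14.2). Neighbours in these orders were not tested against each other, and exon length counts every annotated isoform.

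Calls depended on scaling and on the M1 library used. Scaled to total counts, which moves the median of all genes up by 0.45 log2 units in M2, 18 members were higher and 2 lower, so 90.0% of the member calls were higher against 53.8% under TMM. Over all genes the share of calls that were higher went from 51.4% to 71.9%. Upper-quartile scaling moved the median of all genes by 0.18 and gave 9 higher and 4 lower. Acat2, Insig2, Lbr and Mvd were no longer called lower under total counts. In every one of the 11 alternatives Dhcr7, Ebp, Hmgcs1, Mvk, Nsdhl and Scap were called higher, and Ggps1 and Insig1 lower.

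The M1 libraries differed from each other across most of the pathway. Of 26 members, 24 stood higher in M1 replicate 2 than in replicate 1, against 47.0% of all genes tested, with a median of 0.30 log2 units against -0.01 over all genes. The exceptions were Ggps1 (log2 -0.13) and Insig2 (-0.05). By more than 1.25-fold, 13 of 26 were higher in replicate 2, against 11.0% of all genes. The 95% counting interval lay above equality for 17 members and below it for 0, against 11.2% and 16.4% of all genes. This compares 2 libraries and not 2 conditions: there is no replicate check, and intervals cover counting error only. The members were chosen with earlier results of these data known.

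The gap was widest in the sterol steps. Sqle was 1.80-fold higher in M1 replicate 2 (log2 0.85, counting interval 0.68 to 1.02) and Cyp51 1.74-fold (0.80, interval 0.67 to 0.93). Fdps was 1.61-fold higher (0.68, interval 0.52 to 0.85). Tm7sf2 (0.63), Fdft1 (0.55), Hsd17b7 (0.49), Msmo1 (0.45), Lss (0.44), Hmgcs1 (0.41) and Mvd (0.41) followed, all on the log2 scale. Srebf2 differed by 0.45 and Stard4 by 0.45, and Insig1 by 0.22. Members with an interval that took in equality included Dhcr7 (0.04), Ebp (0.01), Mvk (0.07) and Scap (0.08). Srebf1 differed by 0.09, with an interval that began at 0.00.

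**Figure D3:**
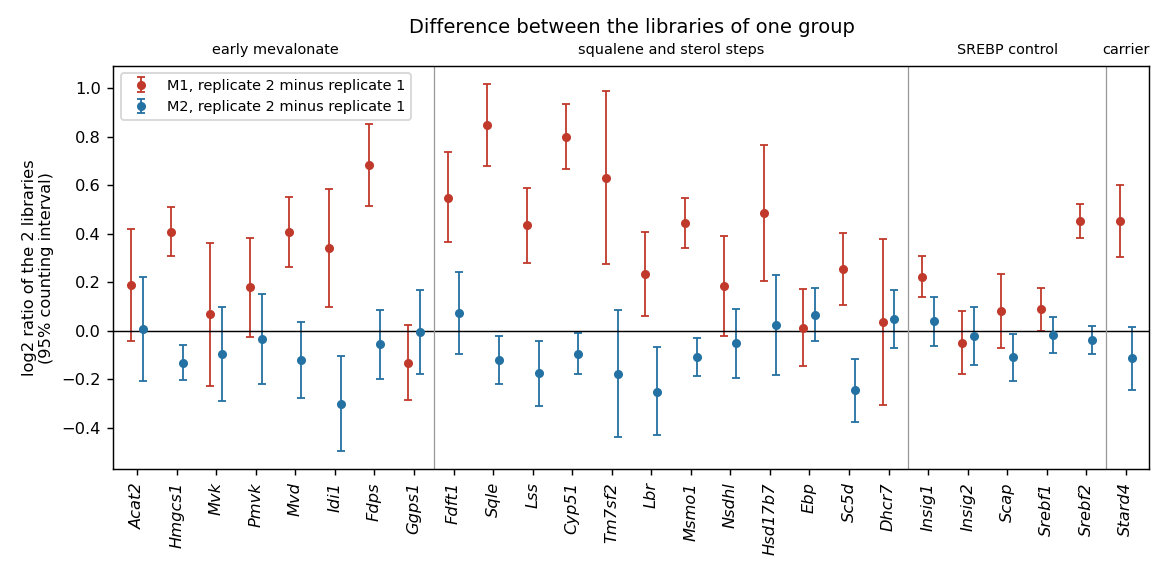
Log2 ratio of replicate 2 to replicate 1 for each tested member, in M1 (red) and in M2 (blue), with 95% counting intervals. Red points reach 0.85 for Sqle and 24 of 26 lie above 0; blue points lie between -0.30 and 0.07.

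The M2 libraries were closer together, over all genes as well as the members. The median absolute gap of the members was 0.30 log2 units in M1 and 0.084 in M2, against 0.14 and 0.081 over all genes tested. Replicate 2 was lower for 20 of 26 members, against 49.1% of all genes, but by a median of only 0.07 log2 units, and none differed by more than 1.25-fold in that direction, against 7.16% of all genes. The counting interval lay below equality for 9 members and above it for 0, against 7.59% and 7.37% of all genes. Idi1 (-0.30), Lbr (-0.25) and Sc5d (-0.25) differed most. Under RLE and total-count scaling and the CPM filter, 6 of 26 were higher in M2 replicate 2, and under upper-quartile scaling 7. Without a filter on low counts, which changes the TMM factors, 13 of 26 were higher, so the M2 direction did not hold in that setting. The M1 direction held throughout: 24 of 26 were higher in M1 replicate 2 under each of the 5 other scalings and filters. Summed over the 20 enzymes, levels were 389.7 and 509.8 CPM in M1 and 560.6 and 526.5 CPM in M2. In this sum M1 replicate 2 lay nearer to M2 than M1 replicate 1 did. Single enzymes also went the other way, among them Acat2, Pmvk, Mvd, Lbr and Fdft1, where M1 replicate 1 lay nearer to M2.

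Other values differed between the M1 libraries as well. Abca1 and Abcg1, cholesterol exporters and liver X receptor targets, went against the synthesis genes, with 252 and 166 CPM and with 84.5 and 49.5 CPM in M1 replicates 1 and 2. In M2 they had 188 and 177 CPM and 413 and 401 CPM. Abca1 was picked after its values were seen. Il12b, a cytokine subunit of the M1 state, had 4501 and 6970 CPM in the M1 libraries, Nos2 had 8035 and 7258 CPM, and the stromal sums were those given above. Total counts were 34445668 and 28407982. The part of these in the gap between the M1 libraries was not tested.

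The choice of M1 library changed which members were called. With M1 replicate 1 as the only M1 library, 14 members were higher and 5 lower. With M1 replicate 2 alone, 8 were higher and 13 lower. Thus 73.7% and 38.1% of the member calls were higher, against 51.3% and 51.2% of the calls over all genes. Sqle and Cyp51 were called higher in M2 either way, Sqle by 1.46 and 0.61 and Cyp51 by 1.16 and 0.36 log2 units against replicates 1 and 2. With both M1 libraries kept and either M2 library left out, neither gene was called. Fdps and Srebf2 were called in opposite directions. Fdps was at 0.33 against M1 replicate 1 (edgeR adjusted p = 2.53e-04) and at -0.35 against replicate 2 (edgeR adjusted p = 4.02e-05). Srebf2 was at 0.34 (edgeR adjusted p = 3.18e-10) and at -0.12 (edgeR adjusted p = 0.0352). In these fits a lone M1 library is assumed to vary as the M2 libraries do, and the M2 libraries lay closer together for these genes.

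**Figure D4:**
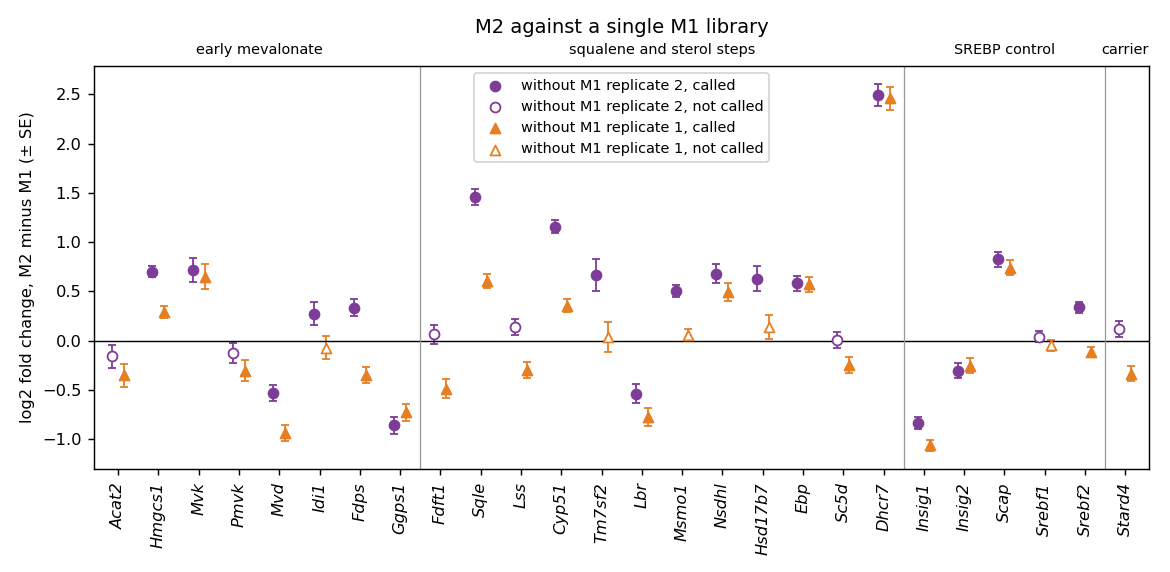
Log2 fold change of M2 minus M1 (± SE) when M1 is represented by replicate 1 alone (purple circles) or replicate 2 alone (orange triangles), filled where called at an adjusted p under 0.05. Dhcr7, Ebp, Mvk and Scap lie at nearly the same value in both, while Fdps and Srebf2 change sign.

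Genes around the pathway were read from lists in the same fit, to be set against the 39.7% higher, 37.5% lower and median of 0.04 over all genes. Of 11 genes of SREBP processing and sterol-regulated degradation, 4 rose, 5 fell and 2 were not called (median log2 0.02). The proteases that release SREBPs rose: Mbtps2 went from 27.2 and 27.1 CPM to 51.9 and 51.7 CPM (log2 0.93) and Mbtps1 from 48.3 and 52.8 CPM to 82.6 and 80.5 CPM (log2 0.69). Rnf145, a ubiquitin ligase linked to sterol sensing, fell from 202 and 183 CPM to 48.7 and 48.5 CPM (log2 -1.98). Erlin1, a membrane protein that takes part in sterol-driven degradation, fell by 1.28 on the log2 scale. Under total-count scaling 6 of the 11 rose and 3 fell, and with DESeq2 2 rose and 5 fell.

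All 8 further genes of cholesterol synthesis and SREBP2 regulation passed the test, 6 higher and 2 lower (median log2 0.82). The median was 0.46 without M2 replicate 1, with 4 higher and 2 lower of 7 tested, 0.51 without M2 replicate 2 and 0.50 under the CPM filter, each over 7 genes. Tmem97, a sterol-regulated membrane protein, had 7.93 and 14.0 CPM in M1 and 26.0 and 25.8 CPM in M2 (log2 1.26, edgeR adjusted p = 0.012), with a gap of 0.82 between the M1 libraries. Of 13 genes of the isoprenoid branch, which use the products of Fdps and Ggps1, 4 rose and 9 fell (median log2 -0.24). Pdss1, which builds the tail of ubiquinone, fell by 0.96 and Rabggta, a Rab prenyltransferase subunit, by 0.54 on the log2 scale. Zmpste24, the protease that matures prenylated lamin A, rose by 0.77 and Fntb, a farnesyltransferase subunit, by 0.71. Total-count scaling turned this balance, with 8 genes higher and 1 lower, where 71.9% of the calls over all genes were higher. Upper-quartile scaling left 5 lower, and 6 were lower without a filter or without M2 replicate 2. Between the M1 libraries 6 of 13 were higher in replicate 2, with a median of -0.05 log2 units.

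Fatty acid genes driven by SREBP1 mostly rose: 7 of 10 rose, 2 fell and 1 was not called (median log2 1.30). Srebf1 itself was called higher only under upper-quartile and total-count scaling, where 8 of these 10 rose. Lpin1, a phosphatidate phosphatase, went from 2.27 and 2.60 CPM to 44.6 and 43.5 CPM (log2 4.18), and Fads2, a desaturase, from 8 and 20 counts to 183 and 236 counts (log2 3.37). Me1, the NADPH-making malic enzyme, fell by 1.21 and Acss2, an acetyl-CoA synthetase, by 1.06.

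Sterol transport and storage genes split, 4 higher, 6 lower and 1 not called of 11 (median log2 -0.14), or 6 higher and 4 lower under total-count scaling. Lipa, the lysosomal lipase that frees cholesterol from esters, had 269 and 213 CPM in M1 and 2522 and 2506 CPM in M2 (log2 3.38). Gramd1a and Gramd1c, which carry cholesterol from the plasma membrane, fell by 1.79 and 2.05 on the log2 scale, Gramd1c from few counts. Of 8 oxysterol and liver X receptor genes, 7 were tested: 2 rose, 4 fell and 1 was not called (1 rose when either M2 library was left out). Ch25h, which makes 25-hydroxycholesterol, had 91.2 and 80.6 CPM in M1 and 0.575 and 0.630 CPM in M2 (log2 -7.14). Cyp27a1, which makes another oxysterol, went the other way, from 1.92 and 2.77 CPM to 37.9 and 34.7 CPM (log2 3.97). Nr1h3, a liver X receptor, fell by 1.01.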

How the data were processed

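Poly(A) libraries were made with a kit that does not mark strand and read as paired 150-base reads, per the labels' protocols. The submitters' processing notes name STAR 2.5.2b, Subread 1.5.2 with featureCounts, Trimmomatic 0.36, DESeq and DESeq2, and the build GRCm38. How each was set is not given in the sources used here. For 4 libraries the authors deposited whole-number counts per gene, not normalized. Their comparison table was not used here.

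Of 49315 gene IDs, 48970 matched a GENCODE vM21 symbol. Counts were fitted with edgeR 4.0.16 in R 4.3.3 (filterByExpr with a minimum count of 10 and a total of 15, TMM, robust quasi-likelihood F test, two-sided, calls at an adjusted p under 0.05). SE is the absolute log2 fold change over the square root of F. RPKM divides CPM by the merged exon length. Ratios of replicates have exact 95% counting intervals (Clopper-Pearson). Near-identical transcripts were those sharing at least 500 bases at 95% identity or more. Alternatives were RLE, upper-quartile and total-count scaling, the Wald test of DESeq2 1.42.0, limma-voom (limma 3.58.1), no filter, at least 5 CPM in 2 libraries, and each library left out. The fit was also run on simulated data with few genes changed and the same spread in both groups. That setting is unlike these libraries, so it does not bear on the scaling or on the wider spread in M1. Members and lists were chosen with earlier results of these data known. All members are named; of each other list, up to 2 called genes of at least 1 CPM each way with the largest change. Some genes that this rule names are not reported here.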

Additional observations from a re-analysis of the deposited data

How the results depend on the processing

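No paired analysis was possible because replicate numbers were given in accession order and pair nothing. Over 286 member results under 11 alternatives, 210 kept direction and side of the threshold. With the direction kept, 34 gained a call and 14 lost one. The other 28 changed sign, with or without a call, 2 of those for a member called in the main fit (Acat2 and Insig2). Some of the 28 were called in their new direction, among them Pmvk, Lss, Sc5d and Insig2 under total-count scaling. Leaving out each library in turn, 8 to 14 members were higher and 4 to 13 lower; total-count scaling gave 18 and 2. Under total-count scaling Acat2 (0.20), Pmvk (0.24), Fdps (0.41), Fdft1 (0.22), Lss (0.36), Sc5d (0.34), Insig2 (0.17) and Stard4 (0.34) changed sign, and under upper-quartile scaling Fdps (0.15), Lss (0.10), Sc5d (0.073) and Stard4 (0.072), in log2 units. Fdps was at 0.025 without a filter and at 0.015 with limma-voom, and Srebf1 at -0.026 under RLE scaling and at -0.026 with DESeq2. With single libraries left out, Idi1 ran from -0.070 to 0.28, Fdps from -0.35 to 0.33, Fdft1 from -0.49 to 0.064, Lss from -0.30 to 0.14, Sc5d from -0.25 to 0.027, Srebf1 from -0.048 to 0.041, Srebf2 from -0.12 to 0.34 and Stard4 from -0.33 to 0.12. Beyond the scaling itself and the M1 library used, the cause was not tested. DESeq2 called 7 members higher and 5 lower. The median gap between the M1 libraries ran from 0.29 to 0.33 over 5 other scalings and filters. Even at these depths, Npc1l1 was too thinly counted to compare, and 2 libraries a group limit every other result.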
